A study of Mus musculus with 6 samples.

Results

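The genes described here are 10 proteoglycan genes of the mouse, Dcn, Bgn, Lum, Vcan, Hspg2, Sdc1, Sdc2, Sdc4, Gpc1 and Gpc3, chosen by name as matrix and cell surface proteoglycans. They were found by their symbols among 14763 gene annotations, of which 8 of the 10 occurred. They were measured in Mvt1, a mouse mammary carcinoma cell line of FVB/N background, stained for surface CD24 and sorted by FACS into CD24- cells, without the marker on the surface, and CD24+ cells, which carry it. Both groups were grown as adherent plates in DMEM with serum and no other treatment, and messenger RNA was sequenced from 3 plates of each, giving 6 libraries.

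A proteoglycan is a core protein that carries long sulfated sugar chains, built on serines of the core from a common linkage sugar. Small leucine-rich proteoglycans such as decorin and biglycan bind collagen fibrils and growth factors, versican binds hyaluronan in the matrix through its amino-terminal end, and perlecan, the syndecans and the glypicans carry mostly heparan sulfate, which holds growth factors at the basement membrane and the cell surface. In the mammary gland syndecans are best known from epithelium, decorin and lumican from stromal fibroblasts.

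The libraries held 9046025 to 25692147 mapped reads of 47 nt, and 71.8% to 74.3% of these were annotated to a gene. CD24+ replicate 1 was the shallowest. Cd24a, the gene of the sorted marker, had 12.1, 11.5 and 6.99 CPM in CD24- replicates 1, 2 and 3 and 73.4, 85.6 and 72.6 CPM in CD24+ replicates 1, 2 and 3. CPM counts the reads of a gene relative to all gene reads of its library, with TMM scaling between libraries. The labels name mammary epithelial cancer cells, and the epithelial keratin genes Krt8 and Krt18 were well expressed, while Cdh1 and Epcam had 2 and 6 reads in all libraries together. The 14 epithelial markers summed to 1890 to 2103 CPM in CD24- libraries and 765 to 910 CPM in CD24+ libraries. Mostly these were Krt8 and Krt18 reads, and of 5 markers tested with edgeR, 1 rose and 4 fell. The rise was that of Cldn3, at means of 0.397 (CD24-) and 2.47 CPM (CD24+). Its CD24- mean lay under the level that the filter on low counts asks for, about 1.01 CPM. The 13 fibroblast or mesenchymal markers summed to 4781 to 5585 CPM in CD24- libraries and 6327 to 7088 CPM in CD24+ libraries. Most of this was Vim, at group means of 3887 (CD24-) and 4377 CPM (CD24+), and S100a4, at 952.5 and 1700 CPM. Of 11 markers tested with edgeR, 9 rose and 1 fell, where 23.8% and 22.3% of all tested genes did. Col1a1 (0.974 against 3.20 CPM) and Col1a2 (0.570 against 1.58 CPM) also had CD24- means under the filter level. Like Cldn3 they reached the test mainly through CD24+ libraries, so these counts are not evidence about the marker sets. Fap had 2 reads in all libraries together, and Thy1 had no annotated read. The 8 basal or myoepithelial markers summed to 0.632 to 1.47 CPM in CD24- libraries and 6.78 to 14.2 CPM in CD24+ libraries, mostly Acta2, with Krt5, Krt14 and Krt17 at 3 reads or fewer. The 10 leukocyte markers summed to 46.9 to 81.3 CPM in CD24- libraries and 7.40 to 9.92 CPM in CD24+ libraries, mostly Cd68. Both tested genes, Cd68 and Itgam, were called lower, where 22.3% of all tested genes were. Itgam, at 3.84 CPM (CD24-) against 0.0175 CPM (CD24+), reached the test only through its CD24- reads. Ptprc, which defines leukocytes, had 2 reads and Cd3e and Tyrobp had none. Endothelial markers summed to 5.47 to 6.45 CPM in CD24- libraries and 1.73 to 3.31 CPM in CD24+ libraries, and adipocyte markers to at most 0.282 CPM. The part of these marker differences in the results was not tested, and in bulk RNA fewer cells of a type and less RNA per cell cannot be told apart. The source describes no repeated sorts, so p-values and SDs measure the spread between plates, and differences tied to CD24 cannot be told apart from others between the sorted groups.

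Reads of 47 nt stand for the genes the comparison turns on, printed 5′ to 3′ on the strand of the gene, each the most often sequenced read within the coding part of 1 exon of its gene (for Vcan, of exon 8). The Sdc2 and Vcan reads come from genes that rose in CD24+ cells, the Sdc1 read from the gene that was lower, the Sdc4 read from the gene with the highest level and the Hspg2 read from a gene that carried no annotation. They lie at mm9 chr15:32957811-32957857 on the plus strand in exon 4 (Sdc2), chr13:89828500-89828546 on the minus strand in exon 8 (Vcan), chr12:8797248-8797294 on the plus strand in exon 3 (Sdc1), chr2:164251613-164251659 on the minus strand in exon 5 (Sdc4) and chr4:137115027-137115073 on the plus strand in exon 79 (Hspg2).
Sdc2: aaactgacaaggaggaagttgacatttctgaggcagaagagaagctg
Vcan: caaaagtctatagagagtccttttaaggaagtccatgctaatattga
Sdc1: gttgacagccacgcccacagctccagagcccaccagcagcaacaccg
Sdc4: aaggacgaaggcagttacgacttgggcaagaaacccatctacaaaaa
Hspg2: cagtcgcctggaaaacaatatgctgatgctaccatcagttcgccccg
The Sdc2 read was counted 1, 0 and 1 times in CD24- replicates 1, 2 and 3 and 3, 19 and 19 times in CD24+ replicates 1, 2 and 3. The Sdc1 read was counted 9, 13 and 7 times in CD24- libraries and 6, 16 and 13 times in CD24+ libraries. The Vcan read was counted 0 times in each CD24- library and 4, 1 and 1 times in CD24+ libraries. For Sdc4 the counts were 39, 40 and 42 in CD24- libraries and 29, 97 and 112 in CD24+ libraries, and the Hspg2 read was counted 15, 15 and 10 times in CD24- libraries and 5, 20 and 22 times in CD24+ libraries. These are raw counts, and single reads are too few to compare groups by, so the sums over each gene follow.

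CD24+ cells had more RNA of Sdc2 (syndecan-2), Vcan (versican), Dcn (decorin) and Bgn (biglycan), and modestly more of Gpc1 (glypican-1) and Sdc4 (syndecan-4). Sdc1 (syndecan-1) was slightly lower in CD24+ cells, by a call that was lost in some fits without 1 library and by distinct sequences. Hspg2 (perlecan), one of the genes with the highest read counts among them, did not pass the test, Lum (lumican) had no read, and Gpc3 (glypican-3) had almost no read in its exons. Of the 10 genes, 7 had enough annotated reads for edgeR's quasi-likelihood test, and all 7 were called at a Benjamini-Hochberg adjusted p below 0.05, 6 higher and 1 lower in CD24+ cells. Among all 11125 genes tested, 46.1% were called, 23.8% higher and 22.3% lower, and for 57.3% the values of one group lay wholly outside those of the other. Dcn and Bgn reached the test only through their CD24+ reads. Neither the count of 7 nor the counts of 4 that follow, which include both genes, are thus evidence about the set. With a minimum log2 fold-change of 1 added, 4 of the 7 were called, Dcn, Bgn, Vcan and Sdc2, where 14.4% of all tested genes were. Counting distinct sequences called 4 of the 7, where 33.4% of 11078 tested genes were. With no filter on low counts Gpc3 was called as well, as were 37.2% of the 14763 genes then tested.

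**Figure D1:**
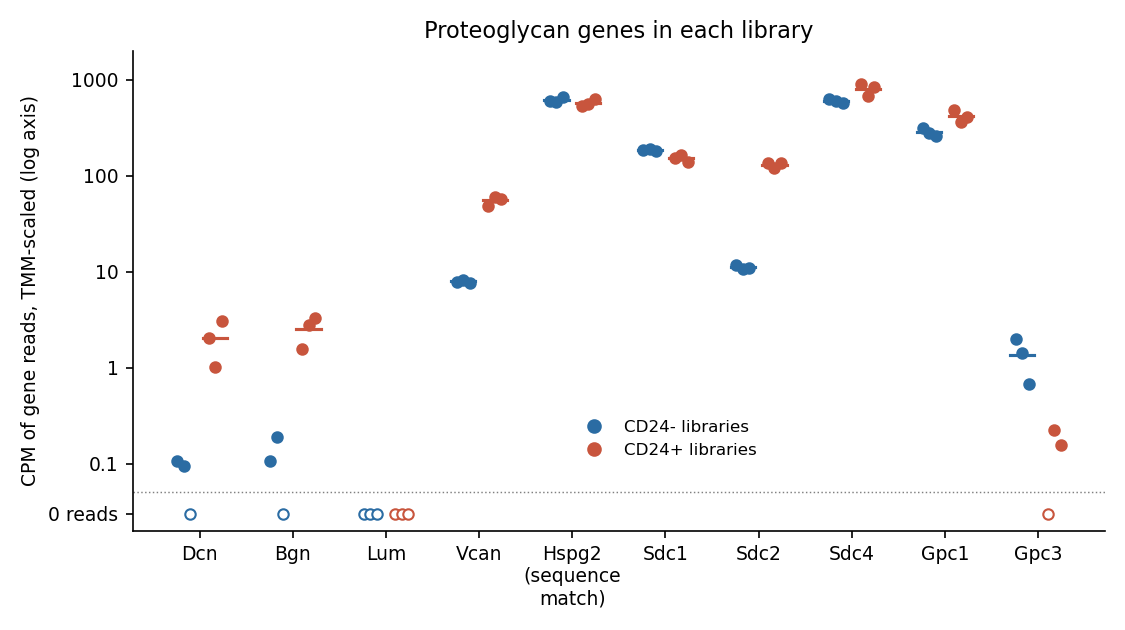
Expression of the 10 proteoglycan genes in each library, in CPM of gene reads after TMM scaling on a log axis. Each point is 1 library, short lines are group means where every library had reads, and open circles mark libraries with 0 reads; Hspg2 is plotted from reads matched by sequence. Sdc2 and Vcan lie far apart between the groups, at means of 11.2 and 130 CPM and of 7.90 and 55.4 CPM, Hspg2 overlaps, and Lum is at 0 reads in all 6 libraries.

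Among the small leucine-rich proteoglycans, Dcn encodes decorin, which coats collagen fibrils and limits their lateral growth. On chromosome 10 of GRCm38 (97479609 to 97518143), it had 1, 1 and 0 reads in CD24- replicates 1, 2 and 3 and 13, 18 and 59 reads in CD24+ replicates 1, 2 and 3. In CPM these were 0.105, 0.0948 and 0 against 2.05, 1.02 and 3.09. The groups did not overlap, and CD24+ replicate 3 was the highest. The summed reads, 2 against 90, gave a ratio of 29.8 per gene read with a 95% counting interval of 8.01 to 249.6, which covers counting error only. Sequence-matched reads, 1 against 88, gave 57.7 (10.1 to 2304), and without CD24+ replicate 3 the annotated reads gave 18.3 (4.67 to 158.1). The fitted log2 fold-change was 4.71 (standard error, SE, 0.79, adjusted p = 7.87e-04, edgeR quasi-likelihood test with Benjamini-Hochberg adjustment), and at so few CD24- reads its size is uncertain. DESeq2 gave 4.89, and the prior count of the edgeR fit was not varied. Without CD24+ replicate 3 too few reads were left for the test.

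Bgn encodes biglycan, the closest relative of decorin, which also acts as a signal to innate immune receptors when released. It lies on chromosome X (73483602 to 73495933) and had 1, 2 and 0 reads in the CD24- replicates and 10, 49 and 62 reads in the CD24+ replicates. In CPM these were 0.105, 0.190 and 0 against 1.57, 2.77 and 3.25. Again no CD24- library reached a CD24+ library. The ratio of summed reads was 26.7 (95% counting interval 8.92 to 131.2) and was 50.96 (8.97 to 2029) without CD24- replicate 2, and the fitted log2 fold-change was 4.57 (SE 0.57, adjusted p = 1.07e-04 by edgeR with Benjamini-Hochberg adjustment). As for Dcn, its size is uncertain, since it rests on 3 CD24- reads. The log2 fold-change was 4.64 by DESeq2, 5.38 without CD24- replicate 2 and 4.09 without CD24- replicate 3.

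Per transcript length, Bgn made up 48.5% ± 15.9 (SD, n = 3) of the summed reads of Dcn, Bgn and Lum in CD24+ cells, ranging from 35.9% to 66.4%, so decorin and biglycan RNA stood at levels that could not be ordered. Other small leucine-rich genes, some of them with more reads, are not in this share. In CD24- replicates 1 and 2, with 2 and 3 reads of both genes together, the share was 42.1% and 59.2%, and replicate 3 had no read of either gene. The share differed by -2.14 percentage points, with p = 1.0 in an exact two-sided permutation test (adjusted p = 1.0 over 4 shares) in which 2 libraries against 3 cannot give a p below 0.2, and its sign changed without CD24- replicate 2 (6.44), CD24+ replicate 1 (4.198) or CD24+ replicate 3 (0.48). Lum encodes lumican, a keratan sulfate carrier of cornea and connective tissue. It had 0 annotated and 0 sequence-matched reads in all 6 libraries, and a count of 0 allows up to 3 reads, which is 0.157 to 0.462 CPM depending on the library.

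Vcan encodes versican, a large chondroitin sulfate proteoglycan that links hyaluronan to other matrix proteins. It lies on the minus strand of chromosome 13 (89655312 to 89742509), with an antisense gene, Gm4117, and a pseudogene, Gm16318, within the same span, and the library kit does not mark strand. Vcan had 7.79, 8.25 and 7.67 CPM in the CD24- replicates and 48.6, 60.1 and 57.6 CPM in the CD24+ replicates. The means were 7.90 ± 0.307 CPM and 55.4 ± 6.0 CPM (SD over 3 libraries each), and the groups stood far apart relative to the spread within either. The log2 fold-change was 2.81 (SE 0.12, adjusted p = 8.03e-08, edgeR with Benjamini-Hochberg adjustment). With median coverage, quantile normalization and a regularizer of 10, an estimate built on the steps of the study, it was 0.29 and still called. Gpc6, with an edgeR log2 fold-change of 4.22, had the same value and adjusted p (0.00101, limma) there. The value is thus shared by genes of unlike change, and the part of each step in it was not tested.

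Versican isoforms differ in a pair of large exons that carry the chondroitin sulfate chains, exon 7 (GRCm38 chr13:89702918-89705797, 2880 nt) and exon 8 (chr13:89688285-89693501, 5217 nt) of the longest of the reference transcripts, which has 15 exons. Other reference transcripts have only exon 8, only exon 7 or neither. Exon 7 held 4, 0 and 4 reads in the CD24- replicates and 6, 39 and 41 reads in the CD24+ replicates. Exon 8 held 36, 52 and 42 reads in the CD24- replicates and 193, 653 and 654 reads in the CD24+ replicates. In both groups exon 8 was read about as densely as the shared exons 3 to 6 and exon 7 was read sparsely.

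Per position, exon 7 stood at 11.1% of the density of exons 3 to 6 in CD24- cells (95% counting interval 4.24% to 26.4%) and at 11.5% in CD24+ cells (8.84% to 14.9%). The CD24- value rests on 8 reads and was 18.5% without CD24- replicate 2 and 6.95% without CD24- replicate 3. Exon 8 stood at 99.1% (61.6% to 167.5%) in CD24- cells and at 110% (95.0% to 127.7%) in CD24+ cells, libraries summed. Of the reads in exons 7 and 8 together, exon 7 held 5.80% in CD24- cells and 5.42% in CD24+ cells, libraries summed. In CD24- replicates 1, 2 and 3 exon 7 held 10.0%, 0% and 8.70%, so the CD24- value is loosely set. Together exons 7 and 8 took 58.8%, 66.7% and 80.7% of the Vcan reads in the CD24- replicates and 66.6%, 67.6% and 65.3% in the CD24+ replicates. Averaged over 3 libraries each, this share was 68.7% ± 11.1 (SD) for CD24- and 66.5% ± 1.16 for CD24+ and did not pass an exact two-sided permutation test (p = 0.8, adjusted p = 1.0 over 4 shares tested), in which 3 libraries against 3 cannot give a p below 0.1. Its CD24- values rest on 57 to 78 reads a library, and without CD24- replicate 3 the difference of -2.22 percentage points became 3.76.

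**Figure D2:**
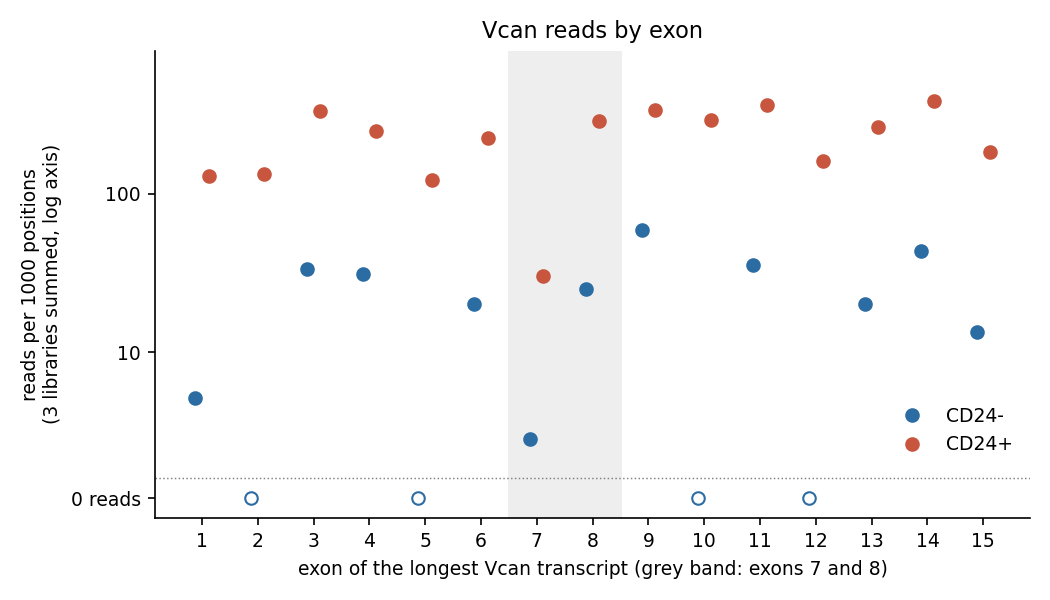
Vcan reads by exon, as reads per 1000 read positions inside the exon on a log axis, with the 3 libraries of a group summed and not scaled for depth; open circles mark exons with 0 reads. Exon 7 lies below its neighbours in both groups, at 2.82 per 1000 positions in CD24- cells and 30.4 in CD24+ cells, while exon 8 stands at 25.1 and 290.1.

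Hspg2 encodes perlecan, a very large heparan sulfate proteoglycan of basement membranes. No deposited read carried its name. Matched by exact sequence to reference transcripts, 41863 reads belonged to Hspg2 and to no other gene, all of them deposited without an annotation, at mm9 chromosome 4 between 137024690 and 137126543. These reads made 9780 distinct sequences, touched 87.3% to 89.7% of the positions of the 14187-nt transcript in each library and followed a similar profile along its 97 exons in all 6 libraries, with 6.31% to 13.6% of the reads in each of 10 equal stretches. Among 8566 genes with at least 1000 sequence-matched reads, 292 had at least 95% of them unannotated, and Hspg2 ranked 12 of these by reads.

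In that sequence-matched count, scaled in the same way, Hspg2 had 599.8, 589.0 and 653.1 CPM in the CD24- replicates and 526.0, 554.4 and 622.9 CPM in the CD24+ replicates. The groups overlapped, with CD24+ replicate 3 above CD24- replicates 1 and 2. The means were 614 ± 34.3 and 568 ± 49.8 CPM (SD over 3 libraries each) and the log2 fold-change was -0.11 with a 95% interval of -0.32 to 0.094 (SE 0.093, adjusted p = 0.347, edgeR with Benjamini-Hochberg adjustment). Of the 12120 genes tested in that count, 45.6% were called. A change of the size seen in Sdc2 or Vcan lies outside this interval, and a decrease of up to 0.32 on the log2 scale lies inside it.

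Of the syndecans, transmembrane carriers of heparan sulfate that act as co-receptors for growth factors and matrix, Sdc2 rose most. On chromosome 15 (32920723 to 33034935), it had 11.8, 10.7 and 10.9 CPM in the CD24- replicates and 135.8, 119.5 and 134.6 CPM in the CD24+ replicates. Every CD24+ library exceeded every CD24- library by far more than the spread of either group. The means were 11.2 ± 0.568 and 130 ± 9.06 CPM (SD over 3 libraries each), an 11.6-fold difference, and the CD24- level was 8.58% of the CD24+ level. The log2 fold-change was 3.54 (SE 0.10, adjusted p = 7.97e-09, edgeR with Benjamini-Hochberg adjustment), and 1.26 and still called under the median coverage estimate with its regularizer of 10.

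Sdc1, the main syndecan of epithelia and plasma cells, lies on chromosome 12 (8771323 to 8793715). It had 185.1, 188.6 and 179.7 CPM in the CD24- replicates and 152.7, 165.7 and 140.0 CPM in the CD24+ replicates. The groups did not overlap, but the gap between them was small. Its log2 fold-change was -0.27 (SE 0.08, adjusted p = 0.0218, edgeR with Benjamini-Hochberg adjustment). The call was lost without CD24- replicate 1 (adjusted p = 0.0727), CD24- replicate 2 (0.0780) or CD24+ replicate 3 (0.0857), all by the same edgeR test.

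Sdc4, a syndecan of focal adhesions, had the highest level of the 10 genes per transcript length and lies on chromosome 2 (164424247 to 164443887, minus strand). It had 631.4, 601.2 and 569.2 CPM in the CD24- replicates and 894.5, 678.6 and 842.9 CPM in the CD24+ replicates. CD24+ replicate 2 was the nearest to the CD24- libraries, and the groups did not overlap. The log2 fold-change was 0.42 (SE 0.11, adjusted p = 0.00875, edgeR with Benjamini-Hochberg adjustment). With each distinct sequence counted once it was -0.061 (adjusted p = 0.779, edgeR). The sequences matched to Sdc4 made up 37.6% to 62.3% of all that its exons allow on both strands, and the part of this in the reversed value was not tested. A further 4008 reads matched its transcripts but were annotated to repeats, 4006 of them to a MER3 element, and made up 7.55% to 8.19% of the matched reads in each library.

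Among the summed reads of Sdc1, Sdc2 and Sdc4 per transcript length, Sdc2 had a larger and Sdc1 a smaller share in every CD24+ library than in any CD24- library. Sdc3, another syndecan, is not in these shares and had 153.8 CPM in CD24- and 154.3 CPM in CD24+ cells. Sdc2 took 1.03% ± 0.0397 of the CD24- and 8.95% ± 0.404 of the CD24+ reads of these genes (SD over 3 libraries each, without Sdc3). Sdc1 took 19.1% ± 0.634 and 11.9% ± 2.26, and Sdc4 took 79.9% ± 0.625 and 79.2% ± 2.60. The Sdc1 share differed by -7.24 percentage points on average, where the exact two-sided permutation test gave its smallest possible p of 0.1 (adjusted p = 0.2 over 4 shares).

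**Figure D3:**
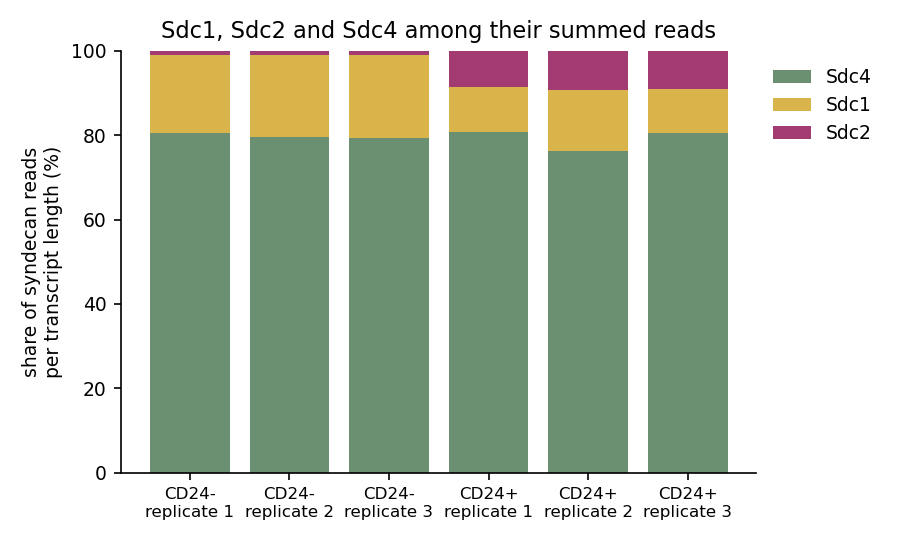
Shares of Sdc4, Sdc1 and Sdc2 among their summed reads per transcript length, in percent, 1 bar per library. Sdc4 makes up 76.2% to 80.7% in all 6 libraries, and the Sdc2 segment is 0.988% to 1.06% of CD24- bars and 8.54% to 9.35% of CD24+ bars.

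Of the glypicans, heparan sulfate carriers held in the membrane by a lipid anchor, Gpc1 lies on chromosome 1 (92831645 to 92860779). It had 314.4, 275.4 and 255.8 CPM in the CD24- replicates and 483.4, 359.3 and 403.5 CPM in the CD24+ replicates. All CD24+ libraries were above all CD24- libraries, with CD24+ replicate 1 the highest. The log2 fold-change was 0.56 (SE 0.12, adjusted p = 0.00335), and 0.30 (adjusted p = 0.168) with each distinct sequence counted once, both from edgeR with Benjamini-Hochberg adjustment. Gpc1 overlaps Ankmy1 and the antisense genes Gm29480 and Gm29481, and 1692 of its 25285 annotated reads matched transcripts of several genes.

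Gpc3, a glypican of embryonic tissues, had 19, 15 and 6 annotated reads in the CD24- replicates and 0, 4 and 3 in the CD24+ replicates, too few for the test. The summed reads were 8.64 times higher in CD24- cells per gene read (95% counting interval 3.83 to 22.9). Only 2 of the 47 annotated reads matched a Gpc3 transcript, both in CD24- replicate 1, while 40 matched no transcript and 4 matched the antisense gene Gm14582. Its share of the summed Gpc1 and Gpc3 reads per transcript length was 0.882% ± 0.352 for CD24- and 0.0639% ± 0.0598 for CD24+ (SD over 3 libraries each, exact permutation p = 0.1, adjusted p = 0.2 over 4 shares). Other glypicans are not in this share, and it rests almost wholly on reads that match none of the Gpc3 transcripts.

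**Figure D4:**
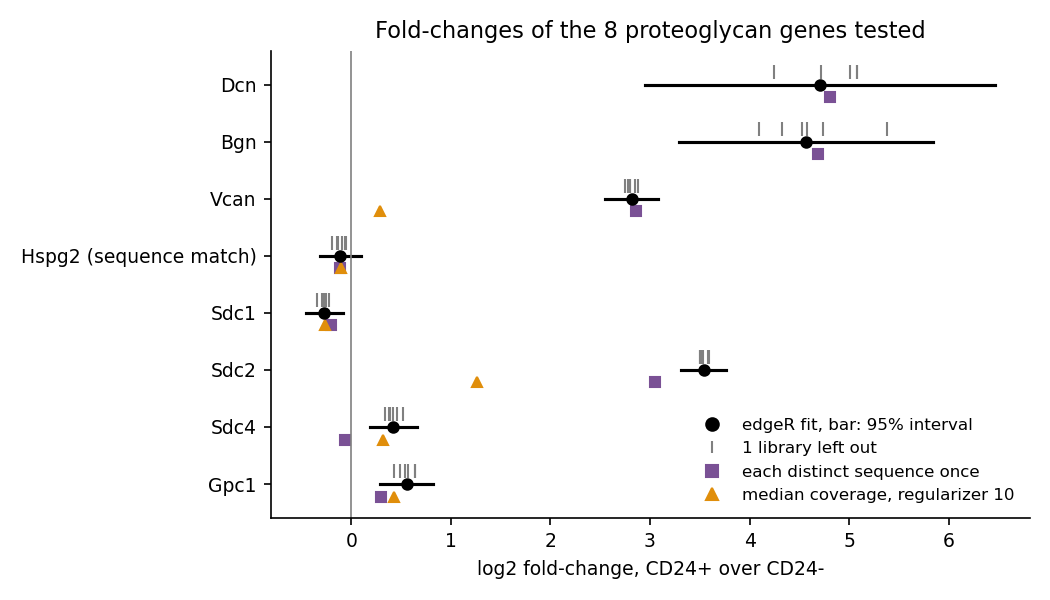
Log2 fold-changes of the 8 proteoglycan genes tested, CD24+ over CD24-, with the edgeR estimate as a black point, its 95% interval as a bar, the estimates without 1 library as grey ticks, each distinct sequence counted once as squares and the median coverage estimate as triangles; no triangle is drawn where that estimate gave no value (Dcn and Bgn). Dcn and Bgn carry the widest intervals, 2.95 to 6.47 and 3.30 to 5.84, the Hspg2 interval spans 0, and the Sdc4 square lies at -0.061.

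Levels can be compared between genes only per length. As sequence-matched CPM per kb of transcript, CD24- cells had 234.8 ± 10.9 of Sdc4, 64.2 ± 6.56 of Gpc1, 58.8 ± 0.848 of Sdc1, 43.3 ± 2.42 of Hspg2 and 3.18 ± 0.220 of Sdc2 (SD over 3 libraries each). Vcan followed at 0.582, and Bgn, Gpc3 and Dcn stood at or below 0.0416. The ranges of Gpc1 and Sdc1 overlapped, so these neighbours could not be ordered.

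In CD24+ cells the same scale gave 342 ± 51.2 for Sdc4, 93.2 ± 13.5 for Gpc1, 48.0 ± 4.27 for Sdc1, 40.0 ± 3.51 for Hspg2 and 36.5 ± 2.19 for Sdc2 (SD over 3 libraries each). Vcan stood at 4.40, Dcn at 1.14 and Bgn at 1.03. The libraries of Sdc2 and Hspg2 overlapped on this scale, at 34.0 to 37.9 against 37.1 to 43.9 CPM per kb, and the highest Hspg2 library and the lowest Sdc1 library both stood at 43.9. Versican RNA rose but stayed below that of every heparan sulfate gene among the 10 genes other than Gpc3. Exact matching leaves out reads across exon junctions, which takes more from a gene of many short exons such as Hspg2. Per 1000 read positions inside exons, Hspg2 and Sdc1 stood at 63.1 and 63.4 CPM in CD24- cells and at 58.4 and 51.8 CPM in CD24+ cells, so the order of these 2 genes rests on the length used. On that scale Sdc2 had 39.1 CPM in CD24+ cells, below Hspg2 at 58.4, so the overlap of Sdc2 with Hspg2 rests on the length used as well.

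Promoter windows of 300 bases, 250 before and 50 after the start site, were held for 6 of the 10 genes, Bgn, Vcan, Hspg2, Sdc1, Sdc4 and Gpc3 (RefSeq, GRCm38.p6). Vcan, which rose, and Hspg2, which did not pass the test, are shown, at GRCm38.p6 chr13:89742463-89742762 on the minus strand and chr4:137468553-137468852 on the plus strand. Capitals mark GGGCGG, the core of a GC box, on either strand.
Vcan promoter: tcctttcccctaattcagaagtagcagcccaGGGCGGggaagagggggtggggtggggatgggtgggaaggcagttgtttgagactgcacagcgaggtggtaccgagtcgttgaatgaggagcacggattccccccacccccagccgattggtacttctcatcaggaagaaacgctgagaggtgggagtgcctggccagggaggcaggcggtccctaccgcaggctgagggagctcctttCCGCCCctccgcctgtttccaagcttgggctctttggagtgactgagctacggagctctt
Hspg2 promoter: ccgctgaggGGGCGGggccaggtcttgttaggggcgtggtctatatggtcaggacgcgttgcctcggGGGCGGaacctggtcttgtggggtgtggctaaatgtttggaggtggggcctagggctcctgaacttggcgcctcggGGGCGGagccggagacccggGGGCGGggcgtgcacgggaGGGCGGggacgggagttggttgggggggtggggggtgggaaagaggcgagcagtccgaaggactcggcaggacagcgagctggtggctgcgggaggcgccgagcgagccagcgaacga
GGGCGG occurred in all 6 windows, in those of genes that rose, fell or did not pass the test, and in 35.7% of all 32851 promoter windows of this length. Neither TATAAA nor CAGGTG, searched on both strands, occurred in any of the 6, against 13.6% and 20.2% of all windows. The GC content of the windows was 61.0% for Vcan and 70.3% for Hspg2, where the median of all windows was 52.7%. These are descriptions of letters, not of binding.

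Other genes of the proteoglycan pathway were listed by role, 130 genes in 9 lists, of which 76 were tested. In CD24+ cells 28 of these were called higher and 11 lower, 51.3% called. Of all tested genes 46.1% were called, 23.8% higher and 22.3% lower, and the counts of each list stand beside these shares. Of the 28 higher calls, 8 (28.6%) had every CD24- library under the level the filter asks for, about 1.01 CPM, and so reached the test only through the CD24+ libraries, as did 253 of the 2652 genes called higher among all tested genes (9.54%). These 8 are Prelp, Hpse, Chst3, Chst7, Has2, Cemip, Adamts5 and Adamts8, which had to be higher to be tested, so the counts and medians of their lists describe the tested genes only. Over all tested genes the median log2 fold-change was 0.0165, with quartiles of -0.27 and 0.32. The calls are edgeR's at a Benjamini-Hochberg adjusted p below 0.05, and values of named genes are means ± SD over 3 libraries a group. The genes described are up to 4 rises and 4 falls a list, called with no overlap between groups and averaging 1 or more in log2 CPM. The most expressed gene of each list is described as well, by CPM over both groups and not divided by length. Not every call is described.

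Other small leucine-rich proteins had 3 of 4 tested genes called higher and none lower, of 14 listed, with a median log2 fold-change of 2.82. Ogn (osteoglycin), a collagen-binding relative of decorin, rose from 4.54 ± 1.90 to 88.8 ± 35.4 CPM, a log2 fold-change of 4.25 (3.53 by distinct sequences). It was the most expressed of its list over both groups, while in CD24- cells Tsku stood higher, at 26.6 CPM. Podnl1 had a log2 fold-change of 1.40. The third was Prelp, at 0.0702 against 3.13 CPM, named here because the count is small. Prelp reached the test only through its CD24+ reads and 7 of the 11 annotated genes had too few reads for it, so neither the count nor the median is evidence about the list.

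Among the other hyaluronan-binding proteins, 2 of 6 tested genes were called, both lower, with a median of -0.13. Layn, a listed gene without annotation and so outside this count, was higher by sequence-matched reads (3.72, adjusted p = 1.38e-07, edgeR). Hapln1, the link protein that ties versican and aggrecan to hyaluronan, went from 22.2 ± 1.15 to 14.5 ± 0.578 CPM (log2 fold-change -0.61). Neither the single-gene match nor the median coverage estimate gave a value for Hapln1. Its fall thus rests on annotated reads alone, and the reason was not tested. Cd44, the main hyaluronan receptor, went from 574 ± 17.2 to 465.5 ± 30.8 CPM (-0.30), and its call was lost without CD24- replicate 1 (adjusted p = 0.0596, edgeR) and when distinct sequences were counted (-0.20, adjusted p = 0.168 by edgeR). Without CD24- replicate 1 the list had 1 call.

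The other heparan sulfate proteoglycans had 8 genes tested, 2 called higher and 1 lower, with a median of 0.28. Gpc6, another glypican, rose from 1.62 ± 0.271 to 30.2 ± 3.92 CPM (log2 fold-change 4.22, SE 0.18, adjusted p = 8.22e-08, edgeR), and Gpc4 rose by 0.47. In the median coverage estimate Gpc6 was at 0.29, still called, the same value as Vcan had there. Srgn, the intracellular proteoglycan serglycin, fell from 43.0 ± 12.9 to 18.1 ± 8.75 CPM (-1.33). Agrn (agrin), the most expressed, had 444 ± 50.7 and 497 ± 54.8 CPM and did not pass the test (0.16, adjusted p = 0.249, edgeR). Among other chondroitin sulfate proteoglycans only 2 of 10 listed genes were tested, with Impg2 lower (-2.10, and -2.73 without CD24+ replicate 2) and Aplp2, the most expressed, not called (-0.17), although Aplp2 was called lower without CD24- replicate 3 (adjusted p = 0.0417, edgeR), which made 2 calls.

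Of the enzymes and transporters for precursors and the linkage sugar, 12 were tested, 2 called higher and 2 lower, with a median of 0.23. Ugdh, which makes UDP-glucuronate, and Papss1, which makes the sulfate donor, had log2 fold-changes of 0.29 and 0.33. B4galt7 and Fam20b, which add to and phosphorylate the linkage sugar, had -0.58 and -0.54. By the same edgeR test the Ugdh call was lost without CD24- replicate 1 (adjusted p = 0.0616), CD24- replicate 2 (0.0529), CD24+ replicate 1 (0.0508) or CD24+ replicate 3 (0.0610) and the Papss1 call without CD24+ replicate 3 (0.0656), where the list had 2 calls. Both calls were also lost when distinct sequences were counted (Ugdh 0.11, adjusted p = 0.539; Papss1 0.20, adjusted p = 0.126, edgeR).

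The heparan sulfate chain enzymes had 15 genes tested, 9 called higher and 1 lower, with a median of 0.92. Of all tested genes 23.8% were called higher and 22.3% lower. Hpse, 1 of the 9, reached the test only through its CD24+ reads (0.375 against 2.08 CPM). Ext1, a chain polymerase, rose from 38.7 ± 3.92 to 128.5 ± 9.23 CPM (log2 fold-change 1.74, SE 0.10, adjusted p = 4.90e-07, edgeR). Hs3st1, a 3-O-sulfotransferase, rose by 2.37, Hs6st1, a 6-O-sulfotransferase, by 1.99, and Ndst3, an N-deacetylase and N-sulfotransferase, by 1.89, though the Ndst3 call was lost in the median coverage estimate (0.076, adjusted p = 0.297, limma). Hs2st1, the 2-O-sulfotransferase, fell from 108 ± 2.68 to 83.2 ± 2.95 CPM (-0.38). Ndst1, the most expressed, had 262 ± 10.8 and 258 ± 12.2 CPM and did not pass the test (-0.017, adjusted p = 0.867, edgeR).

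Of the chondroitin and dermatan sulfate chain enzymes, 13 were tested, 6 called higher and 2 lower, with a median of 0.42. Chst3 and Chst7, 2 of the 6, reached the test only through their CD24+ reads. Dse, the epimerase that turns chondroitin into the dermatan sulfate carried by decorin and biglycan, rose from 6.71 ± 1.14 to 76.2 ± 0.994 CPM (log2 fold-change 3.50, SE 0.12, adjusted p = 2.40e-08, edgeR). The sulfotransferase genes Chst15 and Chst7 rose by 3.06 and 2.64, with Chst15, annotated as 4631426J05Rik, at 3.70 without CD24- replicate 1, and both calls were lost in the median coverage estimate (0.069 and 0.11, adjusted p = 0.313 and 0.137, limma). Csgalnact1, which starts the chondroitin chain, rose by 1.05. Csgalnact2, the most expressed of the list over both groups and an enzyme of the same step, fell from 200 ± 14.7 to 131 ± 18.2 CPM (-0.62), and Chst11 fell by 0.77. In CD24+ cells Chpf stood about level with Csgalnact2, at 134.9 CPM.

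Hyaluronan synthases and hyaluronidases had 7 genes tested, 3 called higher and 1 lower, with a median of -0.20. Has2 and Cemip, 2 of the 3 called higher, reached the test only through their CD24+ reads, so the count is not evidence about the list. Has2, a hyaluronan synthase, rose from 0.616 ± 0.125 to 5.04 ± 0.774 CPM (log2 fold-change 3.0), Tmem2, a cell surface hyaluronidase and the most expressed, by 0.32 (not called without CD24+ replicate 3, adjusted p = 0.0584, edgeR, nor in the median coverage estimate, 0.084, adjusted p = 0.200, limma), and Hyal1 fell by 1.10. The other tested synthases, Has1 (-0.67) and Has3 (-0.20), were not called and are named, after their values were seen, to complete the synthases. The enzymes that cleave or release proteoglycans had 9 tested, 3 called higher and 1 lower, with a median of -0.0079. The same limit holds for 2 of these 3, Adamts5 and Adamts8. Adamts5, a versican- and aggrecan-cleaving protease, rose from 0.348 ± 0.0688 to 4.74 ± 1.62 CPM (3.80), and Notum, an esterase first described as releasing glypicans, by 2.51. Adamts4, a protease of the same family as Adamts5, fell from 35.6 ± 13.1 to 13.8 ± 2.33 CPM (-1.38; not called in the median coverage estimate, -0.29, adjusted p = 0.0617, limma), and Bmp1, the most expressed, did not pass the test (-0.083).

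**Figure D5:**
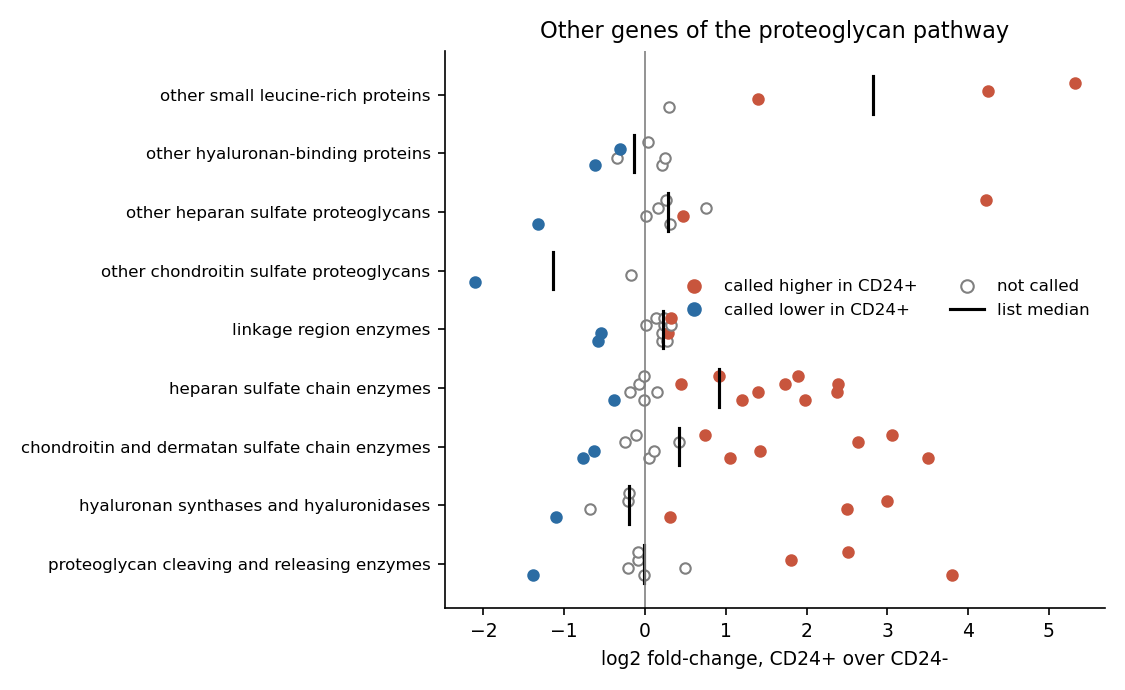
Log2 fold-changes, CD24+ over CD24-, of the 76 tested genes of the 9 pathway lists, 1 point per gene, filled where edgeR called the gene and open where it did not, with a black bar at the median of each list. Points above 3 occur among the small leucine-rich proteins, the heparan sulfate proteoglycans, the chondroitin and dermatan sulfate enzymes, the hyaluronan enzymes and the cleaving enzymes, and the linkage region enzymes lie between -0.58 and 0.33. Of the points above 3, those of Prelp, Has2 and Adamts5 belong to genes that reached the test only through CD24+ libraries.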

How the data were processed

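For each library the authors trimmed 51-nt reads by 2 nt at each end, collapsed identical reads, placed them on the mouse genome (mm9 per the labels) by exact match and deposited the count of every distinct 47-nt sequence with a location and 1 annotation. The counts were deposited without normalization or pooling; the annotation source is not given in the sources used here. Reads over exon junctions or sequence variants are largely lost by this.

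Counts were summed per annotation naming a gene. Reads annotated to nothing (16.9% to 20.2% of a library) or to repeats and small RNA (8.03% to 10.6%) were left out. After filterByExpr, genes were tested by the quasi-likelihood F test of edgeR 4.0.16 (R 4.3.3) on TMM-scaled libraries and called at a Benjamini-Hochberg adjusted p below 0.05. The procedure was tried on simulated counts with the same dispersion for every gene and no changed gene at low counts. That trial does not cover genes with few reads such as Dcn and Bgn. Intervals of fold-changes use the fit's degrees of freedom. For genes without annotation, reads matching transcripts of a single gene in GENCODE M21 (GRCm38) by exact sequence were counted and fitted likewise. Transcript lengths and exons come from GENCODE and are on GRCm38; positions of single reads are on mm9. Shares were compared by exact two-sided permutation tests (scipy 1.17.1). Intervals of read ratios are exact (Clopper-Pearson) and cover counting error only.

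The genes and lists were chosen with earlier results of these data known. Named in each list are up to 4 genes with the strongest rise and 4 with the strongest fall, if called, not overlapping between groups and averaging 1 or more in log2 CPM. The most expressed gene, by CPM over both groups, is named as well. Alternatives were DESeq2 1.42.0, other filters and scalings, distinct sequences, equal depth, single-gene matches, the median coverage estimate tested with limma 3.58.1, a replicate block, a fold-change minimum and each library left out. Libraries of 1 group differed by more than sampling noise (chi-square per degree of freedom at least 1.74).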

Additional observations from a re-analysis of the deposited data

Results flagged for a closer look

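Reads of these genes also occurred outside the gene counts used in the comparisons. For Hspg2, 41863 sequence-matched reads carried no annotation, counted 5547, 6073 and 5578 times in CD24- libraries (replicates 1 to 3) and 3325, 9602 and 11738 times in CD24+ libraries (replicates 1 to 3). For Sdc4, 4008 matched reads were annotated to repeats, at 29.3 to 33.3 CPM of all mapped reads in CD24- libraries and 38.2 to 54.0 in CD24+ libraries, which do not overlap. For Sdc2, 179 matched reads were annotated to a MamGypLTR1b repeat, counted 3, 4 and 2 times in CD24- libraries and 31, 69 and 70 times in CD24+ libraries. The totals exceed the 3 reads that a count of 0 allows, as does every library for Hspg2 and Sdc4, whereas for Sdc2 CD24- replicates 1 and 3 do not.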

How the results depend on the processing

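Of 111 alternative values of the fold-changes of Dcn, Bgn, Vcan, Hspg2, Sdc1, Sdc2, Sdc4 and Gpc1, 105 kept sign and call; the others are those of Sdc1 given with its result and, with distinct sequences, Sdc1 (-0.20, adjusted p = 0.118, edgeR), Gpc1 (0.30) and Sdc4, which reversed to -0.061. The Hspg2 alternatives gave -0.19 to -0.057, and all but the median coverage estimate were chosen after seeing the data. Dcn had too few reads for the test in the single-gene match, at equal depth, in the median coverage estimate and without CD24+ replicate 3. Ndst1 ranged from -0.071 to 0.017 over the left-out libraries, above 0 without CD24- replicate 3. The median coverage estimate, on a compressed scale, leaves out genes whose normalized median coverage is under 1 in every library. It put Ogn at 2.10, Srgn at -0.36, Hs6st1 at 0.58, Hs3st1 at 0.52, Csgalnact1 at 0.33 and Dse at 0.98, all still called. It gave 3092 called genes in place of 5130. By list it called 1 small leucine-rich protein (of 3), 0 chondroitin sulfate proteoglycans (of 1) and 6 heparan sulfate enzymes (of 10). It also called 5 chondroitin and dermatan sulfate enzymes (of 8), 0 hyaluronan enzymes (of 4) and 1 cleaving enzyme (of 4). Podnl1, Hapln1, Impg2, Ext1, Has2, Hyal1, Adamts5 and Notum had no value there, so they were left out and not tested. The cause of the other lost calls was not tested. A minimum log2 fold-change of 1 left 1600 genes, 4 of the 7 proteoglycan genes, 0 hyaluronan-binding proteins, 0 linkage region enzymes and 5 chondroitin and dermatan sulfate enzymes. Counting distinct sequences called 3695 genes, 4 of the 7 proteoglycan genes, 1 hyaluronan-binding protein and 2 linkage region enzymes, and with no filter 4 hyaluronan-binding proteins were called. Leaving out single libraries gave 4069 to 5358 called genes, 6 to 8 proteoglycan genes, 1 to 2 hyaluronan-binding proteins, 1 to 2 chondroitin sulfate proteoglycans, 2 to 5 linkage region enzymes and a difference of the versican share from -7.18 to 3.76 percentage points, above 0 without CD24- replicate 3.

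Whether the replicate numbers pair the libraries could not be settled. Deviations of same-numbered libraries correlated at 0.015, -0.28 and -0.33, and libraries of unlike number were not compared. A replicate block gave 4493 called genes. The difference of the Bgn share ranged from -11.1 to 6.44 percentage points over the left-out libraries and was -21.7 in the single-gene match. CD24+ replicate 1, with 9046025 reads, sets the largest counting error, and 0 reads there allow a level of up to 0.462 CPM.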

Other observations

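Other listed genes of the pathway also had reads without annotation. Layn, a hyaluronan-binding membrane protein, had 1.95, 1.84 and 2.11 sequence-matched CPM in CD24- replicates 1, 2 and 3 and 29.3, 26.4 and 22.7 in CD24+ replicates 1, 2 and 3, and its log2 fold-change was 3.72 (SE 0.18, adjusted p = 1.38e-07, edgeR with Benjamini-Hochberg adjustment). Adamts9, a protease that cleaves versican and aggrecan, had 25.1, 29.7 and 16.4 CPM in CD24- libraries and 99.0, 119.7 and 148.2 CPM in CD24+ libraries (2.37, SE 0.20, adjusted p = 7.16e-06, same test). In both genes the groups stood apart. Chpf2, a chondroitin polymerizing factor, had 53.4, 44.8 and 49.3 CPM against 47.1, 49.9 and 45.9 CPM, which overlapped, with a log2 fold-change of -0.044 (adjusted p = 0.730, edgeR). These genes were named after their values were seen and are not in the counts of the lists, which use annotated reads.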
